A study of Mus musculus with 6 samples.

Results

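The genes described here encode enzymes of the TCA cycle, of the pyruvate dehydrogenase complex that feeds it, and of the breakdown of the branched-chain amino acids leucine, isoleucine and valine. They were taken from a named list of 34 genes and matched by current symbol to the NCBI gene numbers of the expression tables. All 34 were found among the 17441 genes listed in at least 1 of 6 libraries, all 34 were listed in every library, and all 34 were among the 13120 genes tested, which had an FPKM (a fragment count scaled to transcript length and library total) of at least 1 in at least 2 libraries. Bcat1 passed that filter through the infarct libraries alone, so its result without the filter is given where it is described. The study sequenced RNA of mouse hearts to ask how loss of Card9, an adapter protein of innate immune cells, affects the heart after myocardial infarction (MI). WT Sham stands for sham-operated wild-type mice, WT MI for wild-type mice whose left coronary artery was ligated, and Card9 KO MI for Card9 knockout mice with the same ligation. All mice were 12 weeks old by their labels, and tissue from below the ligature was taken after 3 days. By the methods of the study, the mice were males on a C57BL/6 background. Each group had 2 libraries, and nothing in the labels says whether a library came from 1 heart or a pool. P-values therefore measure the spread between these libraries, which may be technical. Sham-operated Card9 knockout mice were not part of the data used here, so genotype and infarct cannot be told apart where Card9 KO MI is set against WT Sham.

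The TCA cycle runs in the mitochondrial matrix, where acetyl-CoA joins oxaloacetate and is oxidised to carbon dioxide while NADH and other reduced carriers are passed to the respiratory chain. The heart is among the tissues with most mitochondria, and its contraction rests on this oxidation. Branched-chain amino acids are first transaminated, then decarboxylated by the branched-chain ketoacid dehydrogenase. Their carbon ends as acetyl-CoA, acetoacetate or succinyl-CoA, of which acetyl-CoA and succinyl-CoA enter the same cycle.

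The libraries held an estimated 3010000 to 4286000 fragments each, as judged from the steps between their lowest FPKM values. At that depth 3 fragments of a 2 kb transcript give an FPKM of 0.350 to 0.498. Replicates correlated across genes at a Pearson's r of 0.980 to 0.981, and genes are not independent replicates. The targeted gene Card9 went against the label. Its FPKM was 0.99 and 1.03 in the WT Sham libraries, 3.39 and 5.08 in those of WT MI, and 9.85 and 6.94 in those labelled Card9 KO MI, so these are named by their label and each direction drawn from them rests on it. FPKM is given per gene, so the exons read are unknown. Cardiomyocyte markers were abundant everywhere, as the labelled tissue requires, with Myh6 (a cardiac myosin heavy chain) between 3454 and 7384 FPKM. The summed FPKM of 12 cardiomyocyte markers was 69575 and 70411 in the WT Sham libraries, 40139 and 41739 in those of WT MI, and 33737 and 38969 in those labelled Card9 KO MI. Over the same libraries, 12 macrophage markers summed to 426 and 364, to 1471 and 1869, and to 2975 and 2157. The 9 fibroblast markers summed to 542 and 519, to 1522 and 2044, and to 3235 and 3106.

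The bases just upstream of the genes are shown because most members moved together between groups. RefSeq gives upstream sequence for 32 of the 34 members, on the mouse assembly GRCm38.p6, and the 250 bases before each annotated start were searched on both strands. A gene was counted if any of its annotated starts held the letters searched for, so more starts give more chances. Of the 32 members, 27 had 1 start. The letters AAGGTCA, bound by estrogen-related receptors and other nuclear receptors, stood upstream of 0 of the 32 members and of 4.70% of the 27025 genes in the table. The palindrome of NRF1, a regulator of mitochondrial genes, stood upstream of 0 members and 0.877% of all genes. The palindrome TGACGTCA, the cAMP response element, stood upstream of Mdh2 and Ogdh, which is 6.25% of members and 1.77% of all genes. These shares were not tested. The element holds a CpG pair (C followed by G), and the median number of such pairs upstream was 15.5 in members and 6 in all genes. The element lay 127 bases before the start of Mdh2 and 51, 60 or 113 bases before 3 of the 6 annotated starts of Ogdh, whose other 3 windows held none. Both are printed with their surroundings, from chr5:135778492-135778559 and chr11:6291516-6291583 (plus strands), and capitals mark the element.
Mdh2: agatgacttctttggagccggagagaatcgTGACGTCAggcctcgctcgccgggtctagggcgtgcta
Ogdh: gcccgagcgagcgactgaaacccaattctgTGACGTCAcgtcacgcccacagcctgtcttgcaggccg

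A further set of letters, CCAAT on either strand, was searched after the sequences had been read. It stood upstream of 18 of 32 members (56.25%), of 37.5% of all genes and of 39.5% of protein-coding genes. At least 3 copies were found upstream of 4 members, which were Ivd with 4 and Pdhb, Mccc1 and Mccc2 with 3 each. That is 12.5% of members, against 3.91% of protein-coding genes. At least 2 copies stood upstream of 28.1% of members and 13.0% of protein-coding genes. Because the letters were chosen after these sequences had been read, the shares cannot test for an excess. Ivd is shown because its level differed most between WT Sham and WT MI among the members that fell, and Bcat1 because it was the member that rose. The last 120 bases before the start are printed, with CCAAT or its reverse complement in capitals, from chr2:118861874-118861993 (plus strand) for Ivd and from chr6:145076158-145076277 and chr6:145048813-145048932 (minus strand) for 2 annotated starts of Bcat1.
Ivd: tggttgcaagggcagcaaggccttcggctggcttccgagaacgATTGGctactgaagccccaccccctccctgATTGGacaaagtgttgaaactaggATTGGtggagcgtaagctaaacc
Bcat1, outer start: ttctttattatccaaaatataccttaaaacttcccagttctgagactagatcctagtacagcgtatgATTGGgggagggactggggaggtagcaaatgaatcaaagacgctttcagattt
Bcat1, inner start: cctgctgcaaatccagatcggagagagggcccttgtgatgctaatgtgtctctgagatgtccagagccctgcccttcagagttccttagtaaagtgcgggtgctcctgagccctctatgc

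Of the 4 copies upstream of Ivd, 3 lie in the stretch printed, and 1 copy lies before the outer start of Bcat1. The median share of G and C over the upstream 250 bases was 58.7% in members and 55.6% in protein-coding genes, and the median number of CpG pairs was 15.5 and 10. These letters are a description of sequence and were not tied to binding in these hearts.

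In WT MI hearts, nearly the whole route from pyruvate and from branched-chain amino acids into the TCA cycle was lower than in WT Sham hearts. Of 34 members, 28 fell and 1 rose at a limma adjusted p under 0.05, against 9.39% of all genes tested that fell and 27.7% that rose. All 5 pyruvate dehydrogenase members fell, as did 12 of 13 TCA cycle members and 11 of 16 branched-chain members. The median log2 fold change was −0.54 over members and 0.19 over all genes tested, on the scale of log2(FPKM + 1). Both WT MI libraries lay below both WT Sham libraries for 32 members, and for 22.1% of all genes. The 5 members not called were Idh3a, Bcat2, Bckdk, Mccc2 and Acad8. Summed over the 34 members, FPKM was 8122 and 8616 in the WT Sham libraries, 5624 and 5468 in those of WT MI, and 4434 and 5000 in those labelled Card9 KO MI.

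With 1 library left out the count of members that fell went from 28 to 18 without WT Sham replicate 2, to 18 without WT MI replicate 1 and to 17 without WT MI replicate 2. Without the trend of the fit 22 members fell, and the calls of Dlat, Pdhx, Cs, Dlst, Bckdhb and Hibch were lost. The share of all genes that fell depended on scaling. It was 16.5% with upper-quartile scaling, at which 19.8% rose, and 18.4% with quantile normalization, at which 17.4% rose, and 32 members fell under either. The median over all genes moved from 0.19 to 0.00 and −0.07, and the median over members from −0.54 to −0.75 and −0.67. Cardiomyocyte markers moved in the same direction, with 10 of 12 called lower and a median of −0.84, and in bulk tissue fewer cardiomyocytes and less RNA per cardiomyocyte cannot be told apart.

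**Figure D1:**
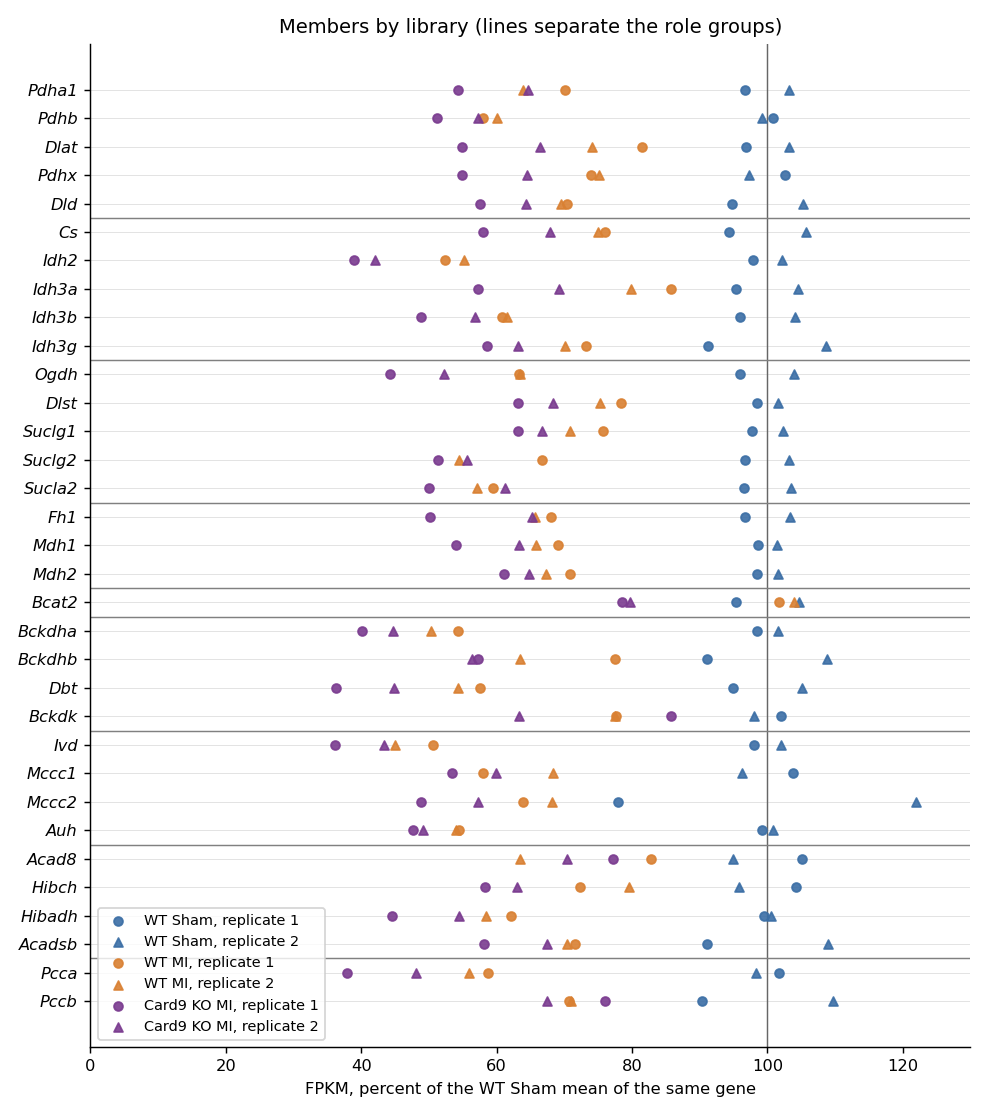
FPKM of 33 members (all but Bcat1) in each of the 6 libraries, as a percent of the gene's WT Sham mean, with 1 line of points per gene and a colour for each group. Infarct libraries lie left of the sham libraries for most genes, and Bcat2 has WT MI points among the sham points.

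The pyruvate dehydrogenase complex turns pyruvate into acetyl-CoA and is built from E1 (Pdha1, Pdhb), E2 (Dlat), the E3-binding protein (Pdhx) and E3 (Dld). Pdhb, the E1 beta subunit (mm9 chromosome 14, 8998505 to 9005506), measured 573 and 564 FPKM in the WT Sham libraries, 330 and 342 in those of WT MI, and 291 and 326 in those labelled Card9 KO MI. The 3 groups did not overlap, and the step from WT Sham to WT MI was the larger one. Pdhb fell in WT MI, at a log2 fold change of −0.76 (SE 0.09, limma adjusted p = 0.000647), to 59.0% of its WT Sham mean. Dlat, the E2 core, measured 130 and 139 FPKM in the WT Sham libraries, 110 and 99.7 in those of WT MI, and 73.9 and 89.3 in those labelled Card9 KO MI. Its groups did not overlap either, and here both steps were of like size. Dlat fell in WT MI by the smallest amount of the complex, with a log2 fold change of −0.36 (SE 0.12, limma adjusted p = 0.0421), and the log2 fold change from WT MI to the libraries labelled Card9 KO MI was also −0.36 (SE 0.12, limma adjusted p = 0.146). Without the filter on low values the adjusted p of Dlat in WT MI was 0.0680. Pdha1, Pdhx and Dld fell to 67.0%, 74.5% and 70.0% of their WT Sham means.

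The first steps of the cycle are run by citrate synthase (Cs) and by isocitrate dehydrogenases, of which Idh3a, Idh3b and Idh3g form the NAD-dependent enzyme and Idh2 is the NADP-dependent mitochondrial one. Idh2 (mm9 chromosome 7, 87239732 to 87260278) measured 794 and 830 FPKM in the WT Sham libraries, 425 and 448 in those of WT MI, and 317 and 341 in those labelled Card9 KO MI. The groups were far apart relative to the spread within each. Idh2 fell in WT MI, at a log2 fold change of −0.89 (SE 0.09, limma adjusted p = 0.000288), to 53.8% of WT Sham. Between the infarct groups it had the lowest adjusted p of any member, at 0.0702 with a log2 fold change of −0.41 (SE 0.09), which did not pass the test. Idh3a, the catalytic subunit of the NAD-dependent enzyme, measured 260 and 285 FPKM in the WT Sham libraries, 233 and 217 in those of WT MI, and 156 and 188 in those labelled Card9 KO MI. No groups overlapped, but the WT MI libraries lay close below WT Sham. Its log2 fold change in WT MI was −0.27 (SE 0.11, limma adjusted p = 0.101), and against WT Sham it fell by 0.66 in the libraries labelled Card9 KO MI (SE 0.11, limma adjusted p = 0.00223). Cs, Idh3b and Idh3g fell in WT MI to 75.5%, 61.1% and 71.6% of WT Sham.

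The next enzymes take 2-oxoglutarate to succinate: Ogdh is E1 and Dlst is E2 of the 2-oxoglutarate dehydrogenase, Suclg1 is the shared alpha subunit of succinyl-CoA ligase, and Sucla2 and Suclg2 are the ADP-forming and GDP-forming beta subunits. All 5 fell in WT MI. Sucla2 fell most, from an FPKM of 263 and 282 in WT Sham to 162 and 156 in WT MI, and it stood at 136 and 167 under the Card9 KO MI label. The infarct groups overlapped for Sucla2 while both lay clear of WT Sham. Its log2 fold change in WT MI was −0.77 (SE 0.11, limma adjusted p = 0.00160) and that between infarct groups −0.07 (SE 0.11). Dlst fell least, from 275 and 283 in WT Sham to 219 and 210 in WT MI (log2 fold change −0.38, SE 0.09, limma adjusted p = 0.0115), and stood at 176 and 191 under the Card9 KO MI label. Ogdh fell to 63.4% of WT Sham, Suclg1 to 73.2% and Suclg2 to 60.5%.

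Fumarase (Fh1) and the malate dehydrogenases close the cycle, with Mdh2 in mitochondria and Mdh1 in the cytosol, where it serves the malate-aspartate shuttle. Fh1 measured 182 and 194 FPKM in the WT Sham libraries, 128 and 124 in those of WT MI, and 94.2 and 123 in those labelled Card9 KO MI. Mdh2, the most abundant member, measured 990 and 1021 FPKM in the WT Sham libraries, 712 and 677 in those of WT MI, and 614 and 652 in those labelled Card9 KO MI. In both genes the 3 groups kept the same order without overlap, although replicate 2 of the libraries labelled Card9 KO MI came close to WT MI for Fh1. The log2 fold change in WT MI was −0.58 for Fh1 (SE 0.13, limma adjusted p = 0.0105) and −0.53 for Mdh2 (SE 0.09, limma adjusted p = 0.00266). Mdh1 fell to 67.4% of WT Sham, close to the 69.1% of Mdh2.

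**Figure D2:**
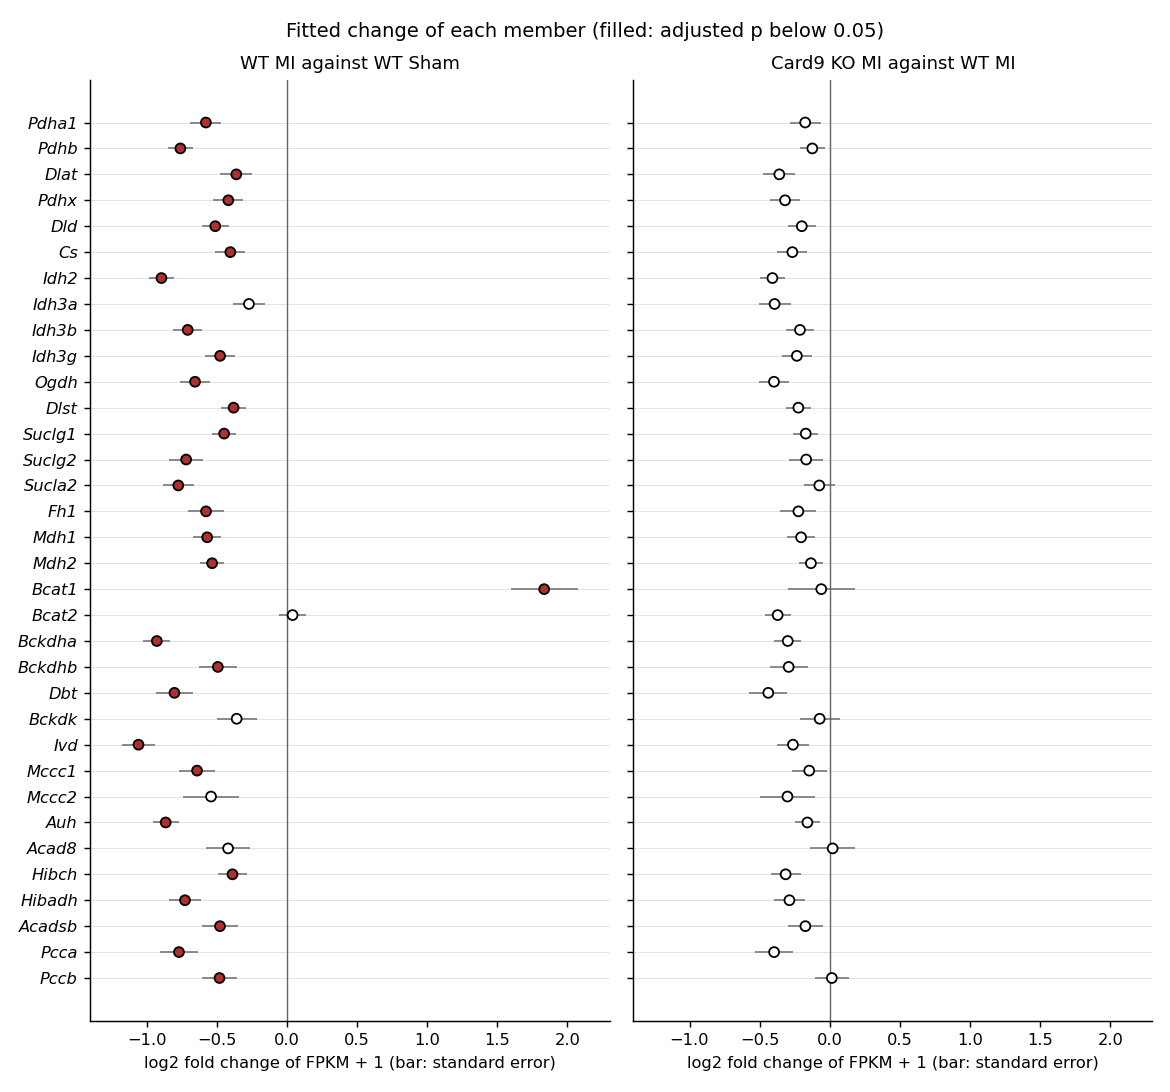
Log2 fold change of log2(FPKM + 1) with its standard error for the 34 members, by role, for WT MI against WT Sham and for Card9 KO MI against WT MI, with filled points for called genes. In WT MI against WT Sham, 32 points lie below 0 and Bcat1 lies at 1.83; between the infarct groups the points span −0.44 to 0.02.

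The transaminases that open branched-chain amino acid breakdown did not follow the other members. Bcat2, the mitochondrial form, measured 56.9 and 62.4 FPKM in the WT Sham libraries, 60.7 and 62.0 in those of WT MI, and 46.9 and 47.5 in those labelled Card9 KO MI. WT MI lay within the range of WT Sham, and both libraries labelled Card9 KO MI lay below the other 4. The log2 fold change of Bcat2 was 0.04 in WT MI (SE 0.09, limma adjusted p = 0.766), a direction that turned to −0.17 with upper-quartile scaling. Against WT MI it was −0.37 in the libraries labelled Card9 KO MI (SE 0.09, limma adjusted p = 0.0974), and against WT Sham Bcat2 fell by 0.33 (SE 0.09, limma adjusted p = 0.0210). That call was lost without WT Sham replicate 2 (limma adjusted p = 0.111), without replicate 1 or 2 of the libraries labelled Card9 KO MI (0.0751 and 0.0542), and without the trend of the fit (0.0608).

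Bcat1, the cytosolic form (mm9 chromosome 6, 144942355 to 145024704), measured 0.08 and 0.04 FPKM in the WT Sham libraries, 2.57 and 3.00 in those of WT MI, and 3.29 and 2.06 in those labelled Card9 KO MI. The WT Sham values lie under what 3 fragments are worth, so no linear fold is given, and the infarct groups overlapped. On the log2(FPKM + 1) scale, which understates the change of low genes, Bcat1 rose by 1.83 in WT MI and by 1.77 from WT Sham to the libraries labelled Card9 KO MI. Because the filter admitted it through the libraries in which it was high, its test is given from the fit without that filter, where the limma adjusted p was 0.00338 and 0.00226 (SE 0.21). All 12 macrophage markers, all 5 markers of dividing cells and the 4 neutrophil markers that could be tested were called higher in both comparisons with WT Sham as well. Of 9 fibroblast markers 7 were called higher in WT MI and 8 under the Card9 KO MI label. The counts were 3 and 0 for 4 erythroid markers tested, and 2 and 3 for 8 endothelial markers. The endothelial list was split, with 1 and 2 of its markers called lower in the same comparisons. Of all genes, 27.7% and 34.8% were called higher. The part of any of these cells in the Bcat1 result was not tested. Even at its highest, the ratio of Bcat1 to Bcat2 within a library was 0.0702.

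The branched-chain ketoacid dehydrogenase commits the carbon to oxidation, with Bckdha and Bckdhb as E1 and Dbt as E2, and its kinase Bckdk switches it off. Bckdha (mm9 chromosome 7, 26414871 to 26443780) measured 151 and 156 FPKM in the WT Sham libraries, 83.2 and 77.2 in those of WT MI, and 61.6 and 68.4 in those labelled Card9 KO MI. All 3 groups were separate. Bckdha fell in WT MI, at a log2 fold change of −0.93 (SE 0.10, limma adjusted p = 0.000345), to 52.3% of WT Sham. The kinase Bckdk measured 46.9 and 45.1 FPKM in the WT Sham libraries, 35.7 and 35.6 in those of WT MI, and 39.4 and 29.1 in those labelled Card9 KO MI. The last 2 values lie on either side of WT MI, and all infarct libraries lay below WT Sham. Its log2 fold change in WT MI was −0.36 (SE 0.14, limma adjusted p = 0.0871), and it passed the test against WT Sham in the libraries labelled Card9 KO MI (−0.43, SE 0.14, limma adjusted p = 0.0388), which it did not without replicate 2 of that group (−0.22, limma adjusted p = 0.175). Bckdhb fell to 70.5% and Dbt to 55.9% of WT Sham in WT MI.

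In the leucine branch, Ivd oxidises isovaleryl-CoA, Mccc1 and Mccc2 form the methylcrotonyl-CoA carboxylase, and Auh hydrates its product. Ivd (mm9 chromosome 2, 118687690 to 118708645) measured 147 and 153 FPKM in the WT Sham libraries, 75.7 and 67.3 in those of WT MI, and 54.2 and 65.0 in those labelled Card9 KO MI. All infarct libraries lay far below the sham libraries. With a log2 fold change of −1.06 (SE 0.12, limma adjusted p = 0.000436), Ivd was the 1 member that fell by more than 2-fold in WT MI. Mccc2 measured 21.8 and 34.1 FPKM in the WT Sham libraries, 17.8 and 19.1 in those of WT MI, and 13.6 and 16.0 in those labelled Card9 KO MI. The WT Sham libraries differed by 44.0% of their mean, the widest gap of any member but Bcat1 in that group. Its log2 fold change in WT MI, −0.54, did not pass the test (SE 0.20, limma adjusted p = 0.0675). Mccc1 fell to 63.2% and Auh to 54.2% of WT Sham.

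In the valine and isoleucine branches, Acad8 and Acadsb are the acyl-CoA dehydrogenases, Hibch releases 3-hydroxyisobutyrate and Hibadh oxidises it. Hibadh, the enzyme that fell most here, measured 157 and 159 FPKM in the WT Sham libraries, 98.0 and 92.2 in those of WT MI, and 70.3 and 86.0 in those labelled Card9 KO MI. Hibch measured 50.9 and 46.8 FPKM in the WT Sham libraries, 35.3 and 38.9 in those of WT MI, and 28.5 and 30.8 in those labelled Card9 KO MI. No groups overlapped for either gene. Their log2 fold changes in WT MI were −0.73 for Hibadh (SE 0.11, limma adjusted p = 0.00213) and −0.39 for Hibch (SE 0.11, limma adjusted p = 0.0242). Acad8, the member of lowest level after Bcat1, measured 12.3 and 11.1 FPKM in the WT Sham libraries, 9.70 and 7.42 in those of WT MI, and 9.03 and 8.24 in those labelled Card9 KO MI. Its infarct libraries lay below WT Sham and overlapped each other. Acad8 passed neither test against WT Sham, with a log2 fold change of −0.42 in WT MI (SE 0.16, limma adjusted p = 0.0732) and −0.40 under the Card9 KO MI label (SE 0.16, limma adjusted p = 0.0701). Acadsb fell to 70.9% of WT Sham in WT MI.

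Propionyl-CoA from valine and isoleucine is carboxylated by an enzyme of alpha (Pcca) and beta (Pccb) subunits. Pcca measured 31.0 and 29.9 FPKM in the WT Sham libraries, 17.9 and 17.0 in those of WT MI, and 11.6 and 14.6 in those labelled Card9 KO MI. Pccb measured 50.4 and 61.2 FPKM in the WT Sham libraries, 39.4 and 39.7 in those of WT MI, and 42.4 and 37.6 in those labelled Card9 KO MI. Pcca was lower in each group than in the one before, whereas the infarct groups overlapped for Pccb. In WT MI, Pcca fell with a log2 fold change of −0.77 (SE 0.13, limma adjusted p = 0.00359) and Pccb with one of −0.48 (SE 0.12, limma adjusted p = 0.0175). Between the infarct groups, Pcca had a log2 fold change of −0.40 (SE 0.13, limma adjusted p = 0.159) and Pccb one of 0.01 (SE 0.12, limma adjusted p = 0.965).

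Between the infarct groups no member passed the test. With limma, 0 of 34 members were called at an adjusted p under 0.05, against 0.587% of all genes called lower and 0.816% called higher. At an unadjusted p under 0.05, 13 members were lower and 0 higher under the Card9 KO MI label, beside 1125 lower and 1504 higher of the 13120 genes. The log2 fold change was below 0 for 32 members and for 43.7% of all genes, with Acad8 at 0.02 and Pccb at 0.01, and under the other scalings it was below 0 for 33 or 34 members. Its median was −0.22 over members and 0.04 over all genes. Both libraries labelled Card9 KO MI lay below both WT MI libraries for 26 members and for 21.9% of all genes, and above them for 0 members and 30.8%. The members outside these 26 were Suclg2, Sucla2, Bcat1, Bckdk, Mccc1, Acad8, Pccb and Pdha1.

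Replicate 1 of the libraries labelled Card9 KO MI was the lowest of the 4 infarct libraries for 29 of 34 members, as it was for 22.7% of all genes tested. Replicate 2 alone lay below both WT MI libraries for 29 members and for 34.9% of genes, and replicate 1 for 30 members and for 31.2%. Without replicate 1 the median over members was −0.15, and without replicate 2 it was −0.31. Members differed by a median of 15.0% between the libraries labelled Card9 KO MI, by 4.94% in WT MI and by 6.75% in WT Sham. The cardiomyocyte markers had a median of −0.13 between the infarct groups, with 0 of 12 called and 4 lower at an unadjusted p under 0.05. Markers of other cells differed over these libraries too. Of 9 fibroblast markers 3 were called higher under the Card9 KO MI label, with a median of 0.62. At an unadjusted p under 0.05, 5 of them were higher and 1 (Pdgfra, log2 fold change −0.52) was lower. Of 12 macrophage markers 0 were called, 6 were higher at an unadjusted p under 0.05, and the median was 0.66. All 5 markers of dividing cells were higher at an unadjusted p under 0.05 with 0 called and a median of 0.85, and their summed FPKM was 37.9 and 49.1 in WT MI and 90.0 and 72.2 under the Card9 KO MI label. For the 10 neutrophil markers the summed FPKM was 41.9 and 32.2 under that label, below the 176 and 74.6 of the WT MI libraries, and the 4 that were tested had a median of −1.16, with 0 called and 2 lower at an unadjusted p under 0.05. The part of any of these cells in the members' values was not tested.

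Against WT Sham, the libraries labelled Card9 KO MI showed 32 members lower and 1 higher at a limma adjusted p under 0.05, where 14.3% of all genes were lower and 34.8% higher. With each library left out in turn 29 to 31 members were lower. The fold change was below 0 for 33 members and for 35.1% of all genes, and for those 33 the libraries of the groups did not overlap (24.5% of all genes lower, 51.6% higher). The median was −0.76 over members and 0.24 over all genes, and the 12 cardiomyocyte markers were all called lower with a median of −0.99. This comparison shares its WT Sham libraries with that of WT MI, so the values stand side by side and are no second test. By group means, 30 of 34 members had the order WT Sham over WT MI over Card9 KO MI, as did 19.6% of all genes, and 25 members kept that order without any overlap of libraries (8.38% of all genes). Ivd stood at 39.8% of its WT Sham mean in the libraries labelled Card9 KO MI, Idh2 and Dbt at 40.5%, Bckdha at 42.4%, Pcca at 43.0%, Ogdh at 48.3%, Auh at 48.4% and Hibadh at 49.4%, and these 8 were at least 2-fold lower on the log2 scale. Bckdk at 74.5% and Bcat2 at 79.1% were nearest to WT Sham.

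**Figure D3:**
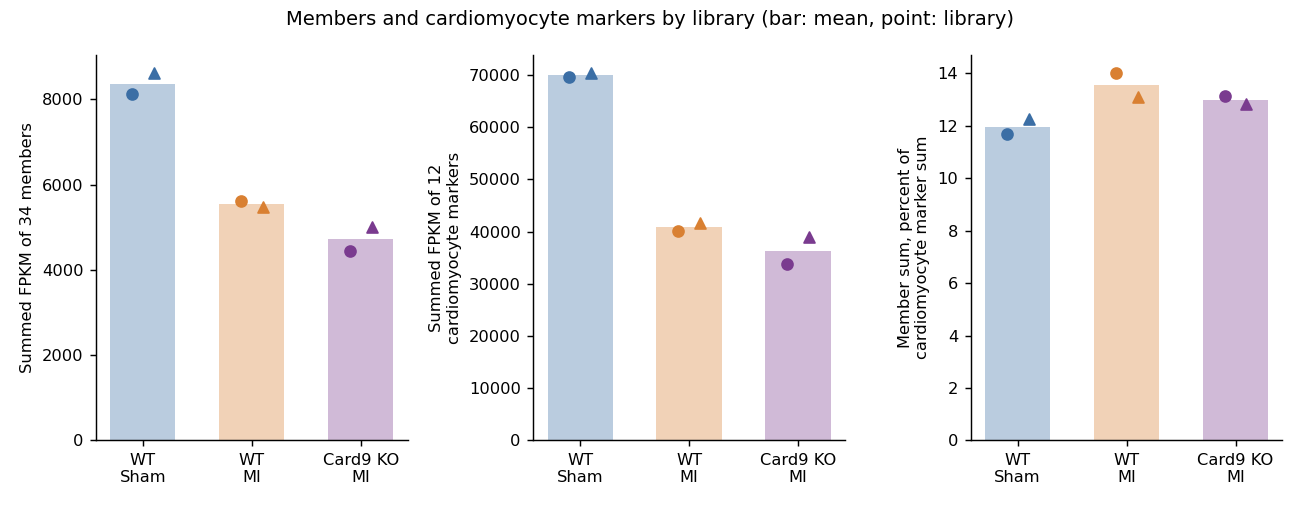
Summed FPKM of the 34 members, of the 12 cardiomyocyte markers, and the first as a percent of the second, with 1 point per library and a bar at each group mean. The mean member sum is 8369 in WT Sham, 5546 in WT MI and, under the Card9 KO MI label, 4717, while the percent lies between 11.7 and 14.0 in all libraries.

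The members made up 1.67% and 1.80% of all FPKM in the WT Sham libraries, 1.18% and 1.15% in those of WT MI, and 0.939% and 1.07% in those labelled Card9 KO MI. Set against the cardiomyocyte marker sum of the same library, a quantity that scaling does not change, the member sum was 11.7% and 12.2% in the WT Sham libraries, 14.0% and 13.1% in those of WT MI, and 13.1% and 12.8% in those labelled Card9 KO MI. Both WT MI libraries thus lay above both WT Sham libraries, with a ratio of group means of 1.13, and the infarct groups overlapped, with a ratio of 0.958. The member sum stood at 0.663 of WT Sham in WT MI, and the marker sum at 0.585. Single markers stood between 0.422 (Myl2) and 0.869 (Tnnt2) of WT Sham, on both sides of the member sum. The direction of the ratio therefore depends on the markers summed, and it does not show that members were kept relative to cardiomyocytes. With 2 libraries a group the smallest p of a two-sided exact permutation test is 0.333, and none was run.

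Members also differed among themselves when each was divided by the geometric mean of the 12 cardiomyocyte markers. In WT MI against WT Sham, 4 members were lower in both libraries (Idh2, Bckdha, Ivd and Auh), 19 were higher and 11 overlapped, beside 2.43% of all genes that were lower and 86.5% that were higher. Relative to these markers, Ivd stood at 0.807 of WT Sham, Bckdha at 0.884, Idh2 at 0.907 and Auh at 0.916, while Idh3a stood at 1.40, Bcat2 at 1.74, Dlat at 1.31 and Dlst at 1.30. Between the infarct groups 13 members were lower, 2 were higher (Pdhb and Sucla2) and 19 overlapped, beside 8.64% of all genes lower and 46.7% higher. Dbt had the lowest such ratio, 0.825, followed by Pcca at 0.852 and Idh2 at 0.861. Against WT Sham, 8 members were lower and 22 higher under the Card9 KO MI label, beside 3.18% and 88.1% of all genes. These are counts of libraries that did not overlap, carry no test and depend on the markers chosen.

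**Figure D4:**
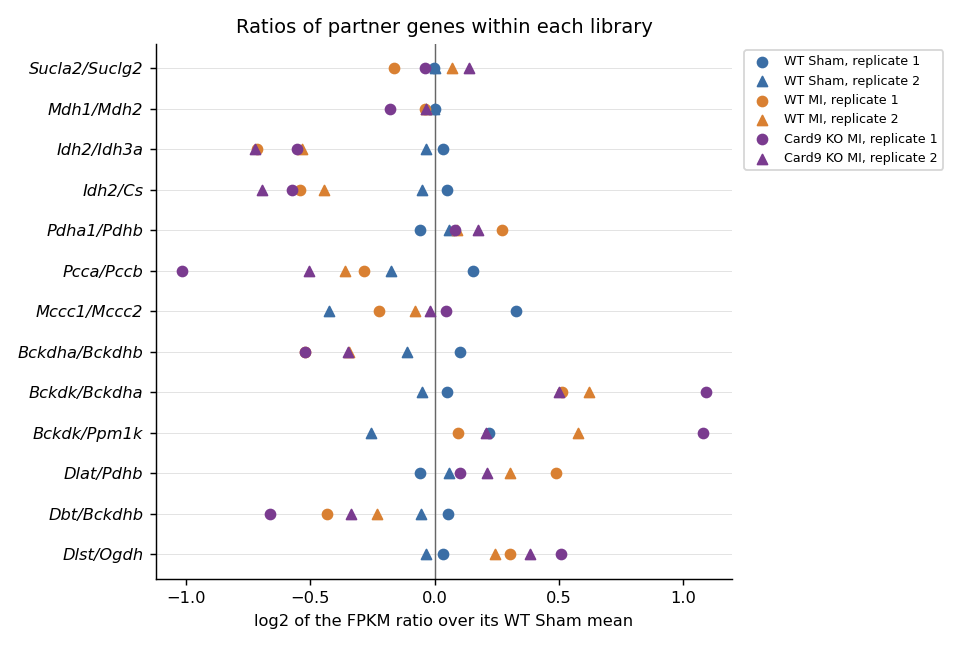
Within-library FPKM ratios of 13 pairs of partner members (or of Bckdk and its opposing phosphatase Ppm1k; Bcat1/Bcat2 is not drawn), as the log2 of the ratio over its WT Sham mean, with 1 point per library and a line at 0. Idh2/Idh3a is lower in all 4 infarct libraries than in WT Sham, and Bckdk/Bckdha is higher in all 4.

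Ratios of partner genes within a library do not depend on scaling. Over 14 pairs of biochemical partners, the WT MI ratio lay below WT Sham in 6, above it in 5 and overlapped in 3, beside 67.0% of all 561 pairs of members without overlap. The separation could be small, as for Mdh1 to Mdh2, whose mean ratio in WT MI was 0.976 of that in WT Sham. The ratios are given as values, with no test. The Idh2 to Idh3a ratio was 3.06 and 2.92 in the WT Sham libraries, 1.82 and 2.06 in those of WT MI, and 2.03 and 1.81 in those labelled Card9 KO MI. It was lower in every infarct library and the infarct groups overlapped. The ratio of the kinase Bckdk to its substrate subunit Bckdha was 0.311 and 0.289 in the WT Sham libraries, 0.429 and 0.461 in those of WT MI, and 0.640 and 0.425 in those labelled Card9 KO MI. All 4 infarct values were above WT Sham, and the infarct groups overlapped. Bckdha to Bckdhb, the E1 subunits, had a mean ratio of 2.66 in either infarct group, 0.742 of that in WT Sham for WT MI, without overlap of these groups.

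In 5 of the 14 pairs the infarct groups did not overlap, a smaller share than the 44.2% of all pairs of members. Pcca to Pccb was 0.454 and 0.429 in WT MI and 0.273 and 0.389 under the Card9 KO MI label, after 0.614 and 0.489 in WT Sham. Idh2 to Cs was 0.915 and 0.978 in WT MI and 0.894 and 0.822 under the Card9 KO MI label, after 1.38 and 1.28 in WT Sham. Both of these pairs went down at each step. Dlst to Ogdh, the E2 and E1 of the 2-oxoglutarate dehydrogenase, went up at each step, with 0.484 and 0.461 in the WT Sham libraries, 0.584 and 0.559 in those of WT MI and 0.673 and 0.618 in those labelled Card9 KO MI. Dlat to Pdhb was above WT Sham in WT MI and lower again under the Card9 KO MI label, with group means of 0.237, 0.312 and 0.264. Mccc1 to Mccc2 lay above WT MI under the Card9 KO MI label, with both groups inside the wide range of WT Sham. The paralogous pair Sucla2 and Suclg2 kept a ratio of 3.30 to 4.07 over all libraries, and Mdh1 to Mdh2 one of 0.702 to 0.796.

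The rest of the pathway was followed with 38 further genes, among them succinate dehydrogenase, pyruvate carriers, the kinases and phosphatases of the dehydrogenases and the remaining enzymes of valine and isoleucine breakdown. In WT MI 24 fell and 2 rose, the latter being Pdk3 and the malic enzyme Me2. Of all genes tested, 9.39% fell and 27.7% rose. In the libraries labelled Card9 KO MI, 28 fell and Pdk3 and Me2 rose against WT Sham, beside 14.3% and 34.8% of all genes. The median log2 fold change of the 38 was −0.57 in WT MI and −0.81 under the Card9 KO MI label, both against WT Sham, and −0.23 between the infarct groups. Between the infarct groups limma called 0 of the 38, beside 0.587% of all genes called lower and 0.816% called higher. At an unadjusted p under 0.05, 14 of the 38 were lower and 2 higher, beside 1125 and 1504 of the 13120 genes. The succinate dehydrogenase subunits Sdha, Sdhb and Sdhc fell to 60.5%, 63.4% and 62.6% of WT Sham in WT MI, while the fourth subunit, Sdhd, stood at 87.6% and was not called (limma adjusted p = 0.168). Aldh6a1, which acts after Hibadh, fell to 51.4%, and Mut, which acts after propionyl-CoA carboxylase, to 56.6%.

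The pyruvate dehydrogenase kinases, which switch off that complex, held the extremes of this list in WT MI against WT Sham. Pdk4, the gene with the most negative fold change in WT MI, measured 162 and 235 FPKM in the WT Sham libraries, 26.4 and 66.6 in those of WT MI, and 112 and 169 in those labelled Card9 KO MI. Of the 4 kinases it was the one whose libraries labelled Card9 KO MI lay above WT MI while WT MI lay below WT Sham. Pdk4 fell in WT MI, at a log2 fold change of −2.19 (SE 0.40, limma adjusted p = 0.0044), and the value of 1.69 between the infarct groups did not pass the test (SE 0.40, limma adjusted p = 0.0884). Pdk3 measured 0.79 and 0.33 FPKM in the WT Sham libraries, 4.95 and 4.07 in those of WT MI, and 8.13 and 7.51 in those labelled Card9 KO MI. Its groups did not overlap and ran in the opposite order to most members. Pdk3 rose by 1.83 in WT MI on the log2 scale. Like Bcat1 it passed the filter through the infarct libraries alone, and without the filter its limma adjusted p was 0.00338 (SE 0.21). Its value of 0.33 in WT Sham replicate 2 lies under the 0.498 that 3 fragments of a 2 kb transcript give there.

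**Figure D5:**
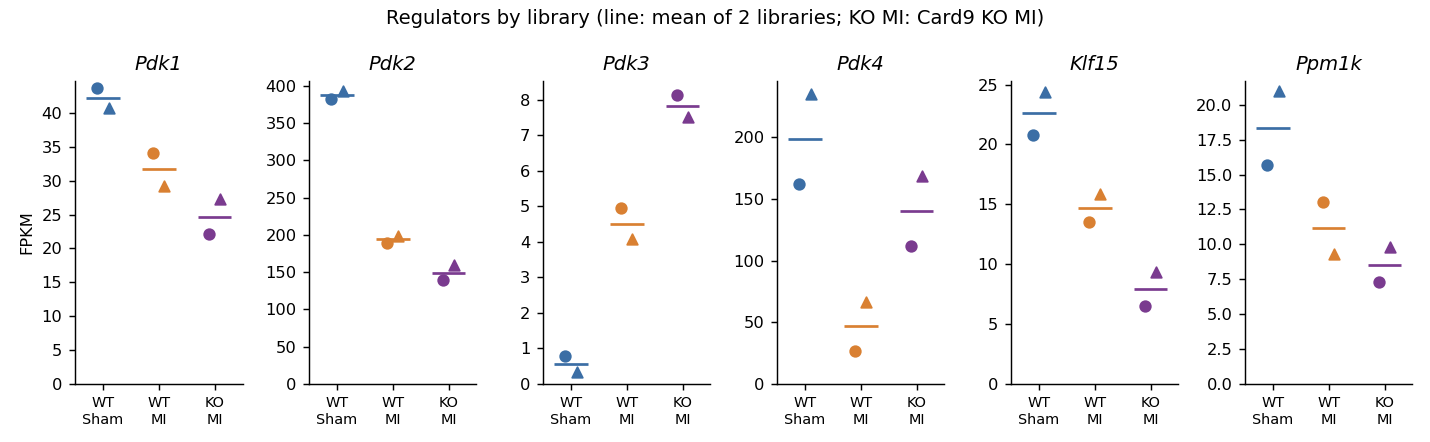
FPKM of Pdk1, Pdk2, Pdk3, Pdk4, Klf15 and Ppm1k in each library, with 1 panel per gene and a line at each group mean. Pdk4 is lowest in WT MI, Pdk3 is highest in Card9 KO MI, and the other 4 have their highest libraries in WT Sham.

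The remaining regulators in that plot were named after their values had been seen. Pdk2, the most abundant kinase, measured 383 and 394 FPKM in the WT Sham libraries, 189 and 199 in those of WT MI, and 139 and 160 in those labelled Card9 KO MI. Pdk1 had an FPKM of 43.7 and 40.8, 34.1 and 29.3, and 22.1 and 27.3 in the same order. Both kinases fell in WT MI, to 50.0% and 75.0% of WT Sham, and neither passed the test between the infarct groups (limma adjusted p = 0.0991 for Pdk2 and 0.205 for Pdk1). Klf15, a transcription factor known to promote branched-chain amino acid breakdown in heart, measured 20.8 and 24.4 FPKM in the WT Sham libraries, 13.6 and 15.8 in those of WT MI, and 6.47 and 9.37 in those labelled Card9 KO MI. Its 3 groups did not overlap. Klf15 fell in WT MI, at a log2 fold change of −0.59 (SE 0.18, limma adjusted p = 0.0380), and the −0.83 between the infarct groups did not pass the test (SE 0.18, limma adjusted p = 0.0732). Ppm1k, the phosphatase that opposes Bckdk, fell to 60.8% of WT Sham in WT MI (limma adjusted p = 0.0424), with an FPKM of 15.7 and 21.0 in the WT Sham libraries, 13.0 and 9.30 in those of WT MI, and 7.26 and 9.83 in those labelled Card9 KO MI.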

How the data were processed

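Bulk RNA-seq of heart tissue was analysed, with samples grouped by their labels. The authors enriched mRNA, sequenced it on a HiSeq 2000, mapped reads to mm9 with BWA/Bowtie2 and deposited FPKM values to 2 decimals. The gene models and strand setting are not given in the sources used here, so genes that overlap or have near copies may share fragments. A gene not listed was set to 0.

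Log2(FPKM + 1) was fitted with limma 3.58.1 in R 4.3.3 (lmFit and eBayes with trend), with the 3 groups in 1 fit and Benjamini-Hochberg adjustment over all 13120 genes tested, and the fit was tested on simulated data. Depth was estimated from the spacing of low FPKM values, as the depth at which they lay closest to whole fragments. At that depth 77.8% to 85.0% of them came within 0.2 of whole fragments, a share that this choice raises. Counts were therefore not reconstructed or tested. Such estimates cover counting error only.

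The members, role groups, pairs and lists were chosen with earlier results of these data known. Values per library are given for members not called lower in WT MI and for those of lowest and highest log2 fold change in WT MI within each role group. Alternatives were pseudocounts of 0.1 and 5, a filter left out or set to a mean FPKM of 5, upper-quartile, quantile and top-100-free scaling (each library scaled to its sum without the 100 most abundant genes), only the groups compared, no trend, a replicate block, a fold of at least 2, and each library left out. The NOIseq screen of the study and protein sequences were not used here. One gene of the wider pathway is counted in its list and not reported here.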

Additional observations from a re-analysis of the deposited data

How the results depend on the processing

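Of the 34 members, 17 kept their direction and their side of the threshold in WT MI against WT Sham under every setting that tested them. The same held for 29 between the infarct groups and 29 in Card9 KO MI against WT Sham. A fold of at least 2 is left out of these counts. The count of members that fell in WT MI was 17 to 30 with each library left out in turn (28 with all), 22 without trend and 1 with a fold of at least 2, where Card9 KO MI against WT Sham had 8. With a mean FPKM of at least 5, Bcat1 was not tested and 0 members were called higher in WT MI or in Card9 KO MI against WT Sham. Over all genes, 2883 to 4675 were called in WT MI against WT Sham with a library left out (4869 with all) and 1707 with a fold of at least 2, and 2544 of 6444 kept that fold in Card9 KO MI against WT Sham. Calls over all genes between the infarct groups varied most, from 184 to 80 with an FPKM of 0.1 added, 312 with 5 added, 12 without the filter, 284 with a mean FPKM of at least 5, 101 with only the groups compared, 58 without trend, 96 with a fold of at least 2, and 8 to 96 with a library left out, while 0 members were called under any of them. The replicate block, whose numbers do not pair the samples (same-numbered libraries deviated together across genes at r of −0.0083 to 0.020), gave 71 genes there and 28 members lower in WT MI, with Dlat lost (adjusted p = 0.0555) and Mccc2 gained (adjusted p = 0.0364). The ratio of member to cardiomyocyte level in Card9 KO MI against WT Sham was 1.16 with geometric means (1.09 with sums). Signs turned for members near 0. Bcat2 in WT MI went to −0.17, −0.15 and −0.11 with upper-quartile, quantile and top-100-free scaling, and from −0.025 to 0.11 with a library left out. Between the infarct groups, Acad8 went to −0.014 and −0.058 with upper-quartile and quantile scaling, and Pccb to −0.022 and −0.0058 with upper-quartile and top-100-free scaling. With a library left out, Acad8 ranged from −0.15 to 0.19, Pccb from −0.069 to 0.098, Bcat1 from −0.30 to 0.18, Sucla2 from −0.22 to 0.070 and Bckdk from −0.29 to 0.14. The median over all genes turned with quantile normalization, to −0.073, −0.0091 and −0.087 in the 3 comparisons. The cause of these changes was not tested, beyond fewer libraries or genes entering the fit. Depth limits Bcat1 in WT Sham and Pdk3 in WT Sham replicate 2, and 2 libraries a group limit every test.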
